A study of Mus musculus with 16 samples.

Results

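The NMDA receptor subunit genes were examined in the cortices of 16 mouse pups at P7 by RNAseq. The genes are Grin1, Grin2a, Grin2b, Grin2c, Grin2d, Grin3a and Grin3b, which were picked by symbol from the 36930 entries of the deposited table. All 7 were found, 1 entry each, and all 7 were among the 21183 genes that passed the filter on low values. In 8 Avil-ChR2 pups, Cre recombinase driven by the advillin gene (Avil), which the study used to target peripheral sensory neurons, after birth mainly IB4-positive nociceptors, though not exclusively (Merkel cells are a further site), removed a floxed STOP cassette in front of the light-gated channel ChR2, which is fused to tdTomato in the Rosa26 locus (Ai27D). The 8 ChR2-flfl pups were Cre-negative litter mates that carried the same floxed ChR2 and did not express it. All pups had a C57BL6 background and received blue light together with a Cre-negative mother, 1 h per day between P1 and P5. The comparison therefore addresses what differed in the cortex after light had reached pups with or without Avil-driven ChR2, and it holds no pups without light. Which pups shared a litter is not stated in the labels.

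NMDA receptors are glutamate-gated cation channels that let calcium into neurons and need glutamate and a co-agonist, glycine or D-serine, to open. Each channel combines the obligatory GluN1 subunit (Grin1) with GluN2 subunits (Grin2a to Grin2d), which bind glutamate and set the kinetics, or with GluN3 subunits (Grin3a, Grin3b), which bind glycine and lower calcium flow. In the rodent forebrain GluN2B and GluN2D prevail around birth, GluN2A increases over the first postnatal weeks and takes over part of the synaptic receptors, a change known as the GluN2B to GluN2A switch, GluN2C is best known from the cerebellum, and GluN3A is typical of the young brain.

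Reads that lay in genes numbered 30549126 in ChR2-flfl replicate 3 and between 47791532 and 48711134 in every other pup. Avil itself, taken as a check of the genotype labels, had 0.825 to 1.46 normalized reads (CPM, reads scaled to a common library size with TMM factors) in ChR2-flfl pups and 37.3 to 46.4 in Avil-ChR2 pups, with no overlap. Avil reads were thus found in the cortex of Avil-ChR2 pups, and which cells they came from and whether ChR2 was made there was not tested. The cortex label was checked with 11 lists of cell type markers. Markers of cortical glutamatergic neurons summed to 1124 to 1253 CPM in ChR2-flfl and to 1186 to 1277 CPM in Avil-ChR2, whereas those of choroid plexus summed to 1.70 to 3.52 CPM over all pups. Markers of neighboring regions were present at intermediate sums, 97.3 to 144 CPM for striatal neurons, 80.4 to 98.3 CPM for thalamic neurons and 35.9 to 48.2 CPM for cerebellar granule cells. The thalamic sum came mostly from Slc17a6 (mean 55.96 CPM in ChR2-flfl and 54.98 CPM in Avil-ChR2) and Prkcd (23.59 and 23.96 CPM). Lef1 had 5.07 and 5.29 CPM, Tcf7l2 was lower than Lef1, and Gbx2 was near 0 (0.0261 and 0.0026 CPM). Whether the reads of this list came from thalamic tissue was not tested. In the cerebellar list, Gabra6 was near 0 (mean 0.010 CPM in both genotypes), whereas Cbln1 had 25.1 CPM in ChR2-flfl and 23.9 CPM in Avil-ChR2. The microglial marker P2ry12 and the erythroid marker Alas2 were listed without reads in all pups. None of the 11 sums differed between genotypes in a two-sided exact permutation test (smallest P = 0.102, for the glutamatergic list), and 2 of 57 markers tested had an unadjusted limma P under 0.05, Slc17a7 (0.11 ± 0.049 SE higher on the log2 scale in Avil-ChR2, limma adjusted P = 0.884) and Ttr, which is almost absent (0.118 CPM in ChR2-flfl and 0.319 CPM in Avil-ChR2). Their part in the results below was not tested. In whole cortex, fewer cells of a type and less RNA per cell cannot be told apart. The Y-linked genes Ddx3y, Uty, Eif2s3y and Kdm5d, placed 15 of 16 pups in the sex of their label. The exception was Avil-ChR2 replicate 4, which is female in the labels and male in the sample list of the study, and which had 54.7 CPM of Ddx3y.

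Because the ratio of Grin2a to Grin2b depends on telling apart transcripts of related genes, the coding sequences of the members were compared first, from their longest GENCODE M21 transcripts on GRCm38. Over all pairs of members the longest identical coding stretch was 34 bases, between Grin2b and Grin2c, and the shortest aligned reads had 50 bases. No 50-base window of the longest transcript of a member occurred in a transcript of another member, so that a read without mismatches could be assigned to 1 member.

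Other genes shared more with some members. Of the windows of the Grin2a transcript inside the span of the deposited entry, 23.7% also occurred in Gm7328, a processed pseudogene on chromosome 8 (56952829 to 56955053, plus strand in GENCODE), so that the Grin2a level is uncertain to the extent that such reads were split or dropped. In Grin1, 19.5% of the windows matched the antisense transcript Grin1os (chromosome 2, 25291220 to 25298928, plus strand), which was listed without reads in all pups. In Grin3b, 23.6% of the windows matched Tmem259, which runs in the opposite direction and had a mean of 77.2 CPM. In Grin2d, 9.29% of the windows matched an antisense transcript, Gm45441. For Grin2b, Grin2c and Grin3a the share was 0.614%, 0.908% and 0%. Ppp3r2, which lies within Grin3a on the same strand, was listed without reads as well. How reads of overlapping genes were assigned is not stated in the sources used here. Xist (minus strand) and Tsix (plus strand) overlap on chromosome X. Xist had reads in 2 of 16 pups, although each genotype included both sexes. Its highest value was 0.208 CPM in ChR2-flfl and 571 CPM in Avil-ChR2, so that its detection differed from pup to pup. Tsix ranged from 0.166 to 932 CPM in ChR2-flfl pups and from 0.225 to 800 CPM in Avil-ChR2 pups. Entries without reads, such as Grin1os and Ppp3r2, therefore do not show that a transcript was absent. Whether reads of the members were affected was not tested.

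The cortex at P7 expressed mainly Grin1, Grin2b, Grin3a and Grin2d. Levels were compared between genes as CPM per kb of exons, with the exon length taken as the union of the GENCODE exons of a gene. In ChR2-flfl pups, Grin1 had 33.0 ± 1.91 CPM per kb (SD, n = 8) and Grin2b 31.0 ± 4.78, and these neighbors overlapped, with 31.3 to 36.8 for Grin1 and 25.1 to 39.8 for Grin2b. Grin3a with 12.2 ± 0.502 and Grin2d with 10.9 ± 1.17 CPM per kb followed and also overlapped. Grin2a was well below them with 1.95 ± 0.236 CPM per kb. Grin3b (0.224 ± 0.038 CPM per kb) and Grin2c (0.186 ± 0.029 CPM per kb) stood at the end of the order and overlapped. In Avil-ChR2 pups, Grin1 (33.4 ± 1.74 CPM per kb, range 30.9 to 36.5) no longer overlapped with Grin2b (24.5 ± 1.48 CPM per kb, range 22.8 to 26.8), and the order of the 7 genes was the same. With the longest transcript as length, which is shorter for Grin1 because the union counts exons of non-coding transcripts, Grin1 had 74.8 CPM per kb and Grin2b 32.0 in ChR2-flfl pups, so that the distance between them depends on the gene model. The deposited Grin2a entry covers 8746 of the 14585 windows of the GENCODE transcript, so that its level per kb is a low estimate.

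**Figure D1:**
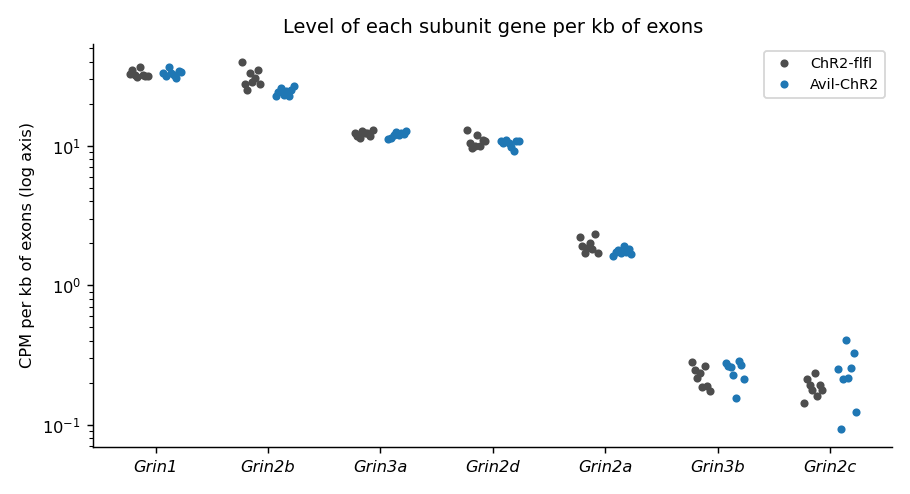
Level of the 7 subunit genes as CPM per kb of exons on a log axis, 1 point per pup, ChR2-flfl in grey and Avil-ChR2 in blue, ordered by the ChR2-flfl mean. Grin1 and Grin2b lie near 30, Grin3a and Grin2d near 10, Grin2a near 2 and the other genes below 1 CPM per kb, and Grin2b of Avil-ChR2 pups lies below Grin1.

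Among the GluN2 subunits, Grin2b made up 70.3% ± 2.35 of the summed CPM per kb in ChR2-flfl pups (SD, n = 8) and 66.3% ± 1.24 in Avil-ChR2 pups. Grin2d contributed 24.8% ± 2.15 in ChR2-flfl and 28.3% ± 1.21 in Avil-ChR2. Grin2a made up 4.45% ± 0.31 in ChR2-flfl and 4.75% ± 0.321 in Avil-ChR2, and Grin2c at most 1.14% in any pup. The deposited Grin2a entry covers 8746 of 14585 windows and that of Grin2b 21972 of 24011, so that the Grin2a share is a low estimate. Shares add up to the whole, so that a lower share of one subunit raises the others, and they were not tested. The GluN2 genes together had 44.0 ± 5.77 CPM per kb in ChR2-flfl and 36.9 ± 1.91 in Avil-ChR2 pups, that is 1.34 ± 0.201 and 1.11 ± 0.038 times the level of Grin1. These multiples hold for the exon union only. With the longest transcript as length, Grin1 had 74.8 CPM per kb in ChR2-flfl pups. Grin2a (2.39), Grin2b (32.0), Grin2c (0.192) and Grin2d (13.3) together were then below Grin1. The same was true in Avil-ChR2 pups (Grin1 75.7, Grin2a 2.14, Grin2b 25.3, Grin2c 0.243 and Grin2d 12.8).

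Between genotypes, Grin2b had the largest difference relative to its spread, Grin2a had a smaller one in the same direction, and the other 5 subunit genes differed by less than their error. Of the 7 members, 2 were lower in Avil-ChR2 at an unadjusted limma P under 0.05 and 0 were higher. Of all genes tested, 3.46% were lower and 1.95% higher by the same criterion. At an adjusted P under 0.05, 0 of 7 members were called (lowest adjusted P = 0.612, limma with Benjamini-Hochberg adjustment over 21183 genes), whereas 0.00944% of all genes were, which is 2 genes. The median log2 difference was -0.020 over the members and 0.0020 over all genes tested.

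Grin2b (chromosome 6, 135715272 to 136173819, minus strand, GRCm38) encodes GluN2B. Its normalized reads ranged from 623 to 988 CPM in ChR2-flfl pups with a median of 738, and from 566 to 666 CPM in Avil-ChR2 pups with a median of 607. Each of the 8 Avil-ChR2 values was under the mean of ChR2-flfl and 5 of them were under its minimum, while 7 of 8 ChR2-flfl pups were above the highest Avil-ChR2 pup. The means were 771 ± 119 CPM in ChR2-flfl and 608 ± 36.9 CPM in Avil-ChR2 (SD, n = 8 each), and the coefficient of variation was 15.4% and 6.06%. The log2 difference was -0.33 ± 0.071 (SE; 95% interval -0.48 to -0.18), or 0.796-fold with an interval of 0.718 to 0.882. The unadjusted P was 0.000173, which was rank 6 of all genes tested, the exact permutation P was 0.000777, and the limma adjusted P was 0.612. The difference is hence larger than its error when the gene is taken alone and does not pass the adjustment over all genes. It was -0.36 in pups with numbers 26 to 33 and -0.30 in pups with numbers 35 to 42 (4 pups per genotype in each run of numbers). Without any 1 pup it stayed between -0.37 and -0.28. Reads of the gene numbered 19287 to 47914 per pup, so that counting error is small beside the spread.

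Grin2a (chromosome 16, 9573737 to 9996500, minus strand) encodes GluN2A. ChR2-flfl pups had 30.4 to 42.1 CPM with a median of 34.0, and Avil-ChR2 pups 29.2 to 34.4 CPM with a median of 31.3. Again each of the 8 Avil-ChR2 values was under the mean of ChR2-flfl, but the groups overlapped widely and only 2 of 8 were under its minimum. The ChR2-flfl pups spread more here too, and 2 of them, replicates 1 and 7, had 40.1 and 42.1 CPM and were the highest 2 pups for Grin2b as well. The log2 difference was -0.15 ± 0.059 (SE; 95% interval -0.27 to -0.026), with an unadjusted P of 0.0202, an exact permutation P of 0.0361 and a limma adjusted P of 0.847. In the runs of pup numbers it was -0.17 and -0.13. The unadjusted limma P was not under 0.05 in the second run alone, with the length slope (defined with the long genes) as covariate, or with array weights, which give pups that stand apart less weight (log2 differences -0.13, -0.082 and -0.11).

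Grin1 (chromosome 2, 25291177 to 25319198, minus strand), the subunit that all NMDA receptors need, did not differ beyond its error. It had 304 to 357 CPM with a median of 312 in ChR2-flfl and 300 to 354 CPM with a median of 324 in Avil-ChR2, and the groups overlapped over nearly the whole range. The log2 difference was 0.018 ± 0.037 (SE), with a 95% interval of -0.059 to 0.095, which leaves room for at most 1.07-fold higher and 0.960-fold lower levels. The interval of Grin1 therefore did not reach the estimate for Grin2b.

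Grin2d (chromosome 7, 45831883 to 45872689, minus strand) encodes GluN2D, a subunit of slow channels that is found in interneurons. It had 64.1 to 86.8 CPM with a median of 70.6 in ChR2-flfl and 60.7 to 73.9 CPM with a median of 70.9 in Avil-ChR2. The groups overlapped, and the log2 difference was -0.053 (95% interval -0.17 to 0.065; limma adjusted P = 0.965). Grin2c (chromosome 11, 115249169 to 115267297, minus strand) was close to the lower end of detection, with 23 to 98 reads per pup. It had 0.721 to 1.18 CPM in ChR2-flfl and 0.473 to 2.05 CPM in Avil-ChR2. The Avil-ChR2 pups lay on both sides, with 4 of 8 above the highest and 2 of 8 below the lowest ChR2-flfl pup, and the log2 difference of 0.22 had the widest interval of all members, -0.27 to 0.71. It also depended on single pups, as it was 0.089 without Avil-ChR2 replicate 4 and 0.39 without Avil-ChR2 replicate 2.

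The GluN3 genes, whose subunits bind glycine, did not differ beyond their error either. Grin3a (chromosome 4, 49661611 to 49846003, minus strand) was the most even member, with 141 to 159 CPM and a median of 152 in ChR2-flfl and 137 to 157 CPM and a median of 149 in Avil-ChR2. Its log2 difference was -0.020 (95% interval -0.085 to 0.046; limma adjusted P = 0.984), and its genomic span is 184393 bp. Grin3b (chromosome 10, 79970397 to 79977190, plus strand) had 22 to 46 reads per pup, 0.579 to 0.928 CPM in ChR2-flfl and 0.515 to 0.941 CPM in Avil-ChR2. The genotypes overlapped almost fully for Grin3b, and its log2 difference of 0.12 had an interval of -0.19 to 0.42.

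**Figure D2:**
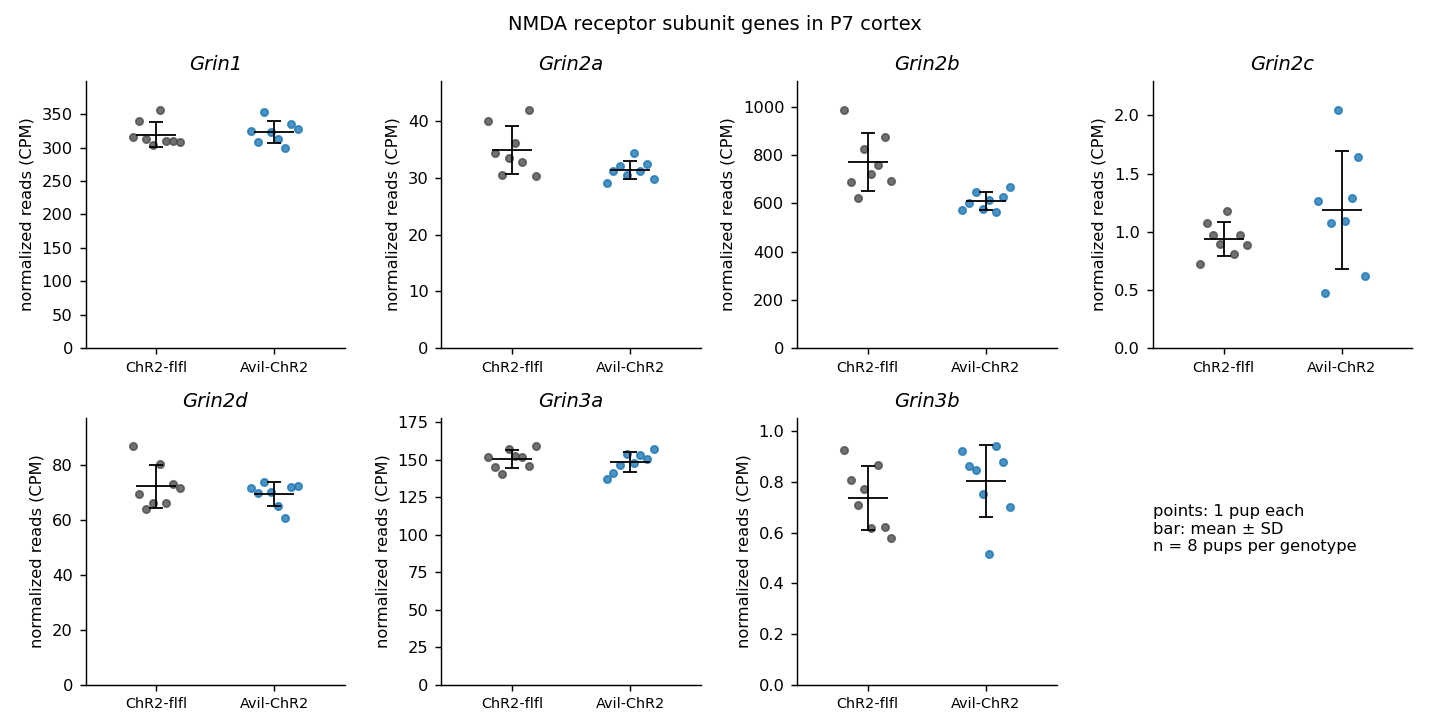
Normalized reads (CPM) of each subunit gene by genotype, 1 point per pup, with the mean and SD of 8 pups as a bar and every vertical axis starting at 0. Grin2b of Avil-ChR2 pups lies between 566 and 666 CPM and that of 7 of 8 ChR2-flfl pups above. Replicate 3 of ChR2-flfl lies within that range (623 CPM), and the genotypes overlap for all other genes as well.

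**Figure D3:**
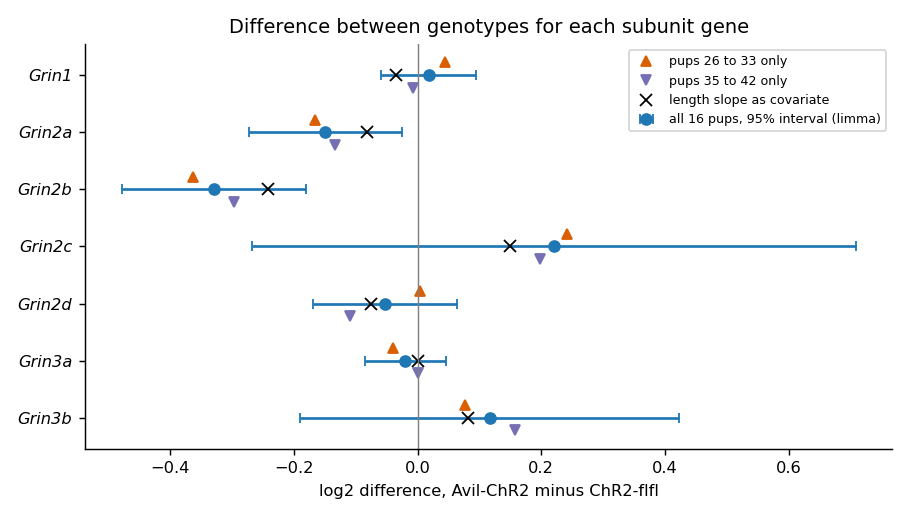
Log2 difference between genotypes (Avil-ChR2 minus ChR2-flfl) with its 95% interval from limma for each gene, beside the difference within each run of pup numbers (triangles) and with the length slope as covariate (crosses). The intervals of Grin2b and Grin2a lie below 0 and those of the other 5 genes include 0.

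Because a ratio within a pup does not depend on the scaling between pups, 3 ratios of normalized reads were compared by two-sided exact permutation tests over all splits of the pups, with P-values adjusted over the 3 ratios. They share the values of the same genes and are not evidence beyond the levels given above. The study had already named Grin2b among its main genes with lower expression in these pups. An adjustment over 3 ratios therefore does not cover the search over all genes. The ratio of Grin2b to Grin1 was 1.99 to 3.13 in ChR2-flfl pups with a median of 2.34, and 1.75 to 2.03 in Avil-ChR2 pups with a median of 1.88. In Avil-ChR2, 7 of 8 ratios were under the ChR2-flfl minimum and 8 of 8 under its mean. The log2 ratio was lower by 0.35 in Avil-ChR2 (difference -0.35, exact P = 0.000622, adjusted P = 0.00186), with differences of -0.41 and -0.29 in the runs of pup numbers.

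The ratio of Grin2a to Grin2b, which rises in the course of the subunit switch, was 0.041 to 0.050 in ChR2-flfl pups with a median of 0.046, and 0.045 to 0.056 in Avil-ChR2 pups with a median of 0.052. It was higher in Avil-ChR2, where 6 of 8 pups were above the highest ChR2-flfl pup and replicate 8 was below the ChR2-flfl mean. The log2 difference was 0.18, or 1.13-fold (exact P = 0.00979, adjusted P = 0.0147), and was 0.20 and 0.16 in the runs of pup numbers. Both genes had lower means in Avil-ChR2, Grin2b by more, so that the higher ratio did not go along with a higher level of Grin2a. The ratio of Grin2a to Grin1 was 0.098 to 0.136 in ChR2-flfl with a median of 0.103 and 0.090 to 0.110 in Avil-ChR2 with a median of 0.095. The ranges of this ratio overlapped, and its log2 difference was -0.17 (exact P = 0.0314, adjusted P = 0.0314). Without ChR2-flfl replicate 7 it was -0.12 (exact P = 0.0589), without ChR2-flfl replicate 1 it was -0.14 (exact P = 0.0575), and its P was also above 0.05 without any of Avil-ChR2 replicates 1, 3, 4 or 8.

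**Figure D4:**
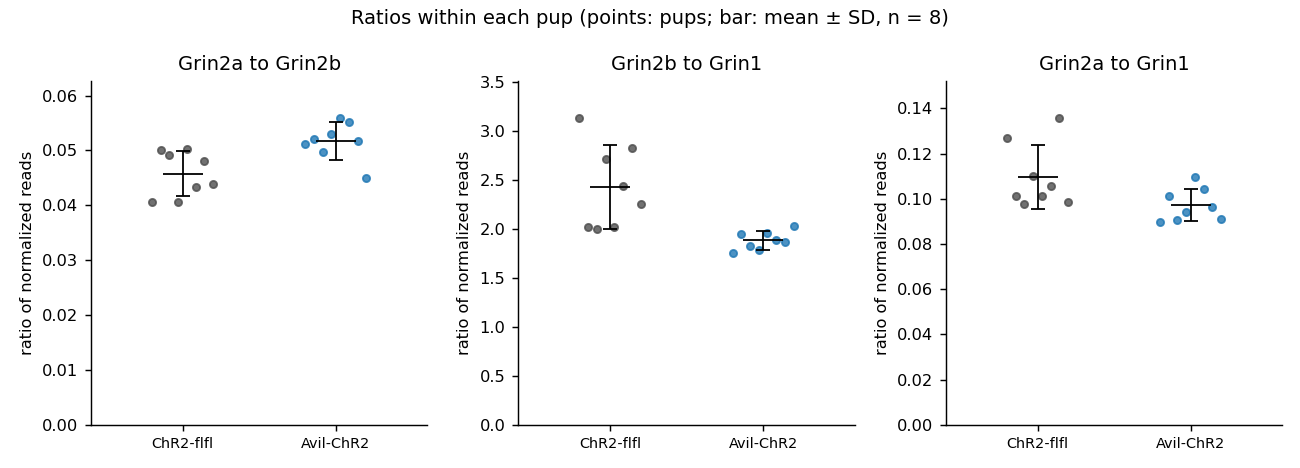
Ratios of normalized reads within each pup for Grin2a to Grin2b, Grin2b to Grin1 and Grin2a to Grin1, with 1 point per pup and the mean and SD of 8 pups per genotype as a bar. Grin2b to Grin1 is below the lowest ChR2-flfl pup in 7 of 8 Avil-ChR2 pups, and Grin2a to Grin2b is above the highest ChR2-flfl pup in 6 of 8.

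Among the pups of 1 genotype, Grin2a and Grin2b went together in ChR2-flfl (r = 0.80, exact permutation P = 0.0192; rho = 0.67, exact P = 0.0831; n = 8 each), but neither passed the adjustment over the 8 relations computed (0.127 and 0.222), and r was 0.42 without the 2 pups farthest from the median of Grin2a. In Avil-ChR2 pups the relation was r = 0.26 (exact P = 0.535, n = 8; rho = 0.31, exact P = 0.462). Grin1 with Grin2b gave r = -0.28 in ChR2-flfl (rho = -0.24) and r = 0.61 in Avil-ChR2 (rho = 0.71), and Grin1 with Grin2a gave r = 0.15 (rho = 0.36) and r = 0.0031 (rho = 0.048), with adjusted exact P-values of at least 0.222 for each of these. All points of a pup share its library.

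Grin2a and Grin2b are the members with the longest genomic spans, 422764 and 458548 bp, and among genes with long spans more were lower than higher in Avil-ChR2. Of the 554 genes of at least 300000 bp whose log2 values averaged 0 or more, 16.4% were lower and 0.542% were higher at an unadjusted limma P under 0.05, with a median log2 difference of -0.039. Of the 8367 such genes under 30000 bp, 1.35% were lower and 2.65% higher, with a median of 0.015. The difference of Grin2b was exceeded by 2 of the 554 long genes and that of Grin2a by 53. For each pup, a length slope was calculated as the slope of log2 values, less their mean over all pups, on log10 of the span over 15137 genes. It ranged from -0.036 to 0.070 in ChR2-flfl pups with a median of 0.022, and from -0.040 to 0.030 in Avil-ChR2 pups with a median of -0.021, and the groups overlapped (difference -0.030, exact permutation P = 0.0570). With the length slope as covariate, the log2 difference was -0.24 for Grin2b (95% interval -0.39 to -0.094, limma adjusted P = 0.887) and -0.082 for Grin2a (95% interval -0.21 to 0.043, limma adjusted P = 0.897). In ChR2-flfl pups Grin2b went with the slope (r = 0.75, exact permutation P = 0.0317; rho = 0.88, exact P = 0.00724; adjusted P = 0.127 and 0.0579; r = 0.77 without the 2 farthest pups), whereas in Avil-ChR2 pups r was -0.21 (exact P = 0.615, n = 8; rho = -0.048, exact P = 0.935) and 0.53 without the 2 farthest pups. What the slope reflects was not tested.

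**Figure D5:**
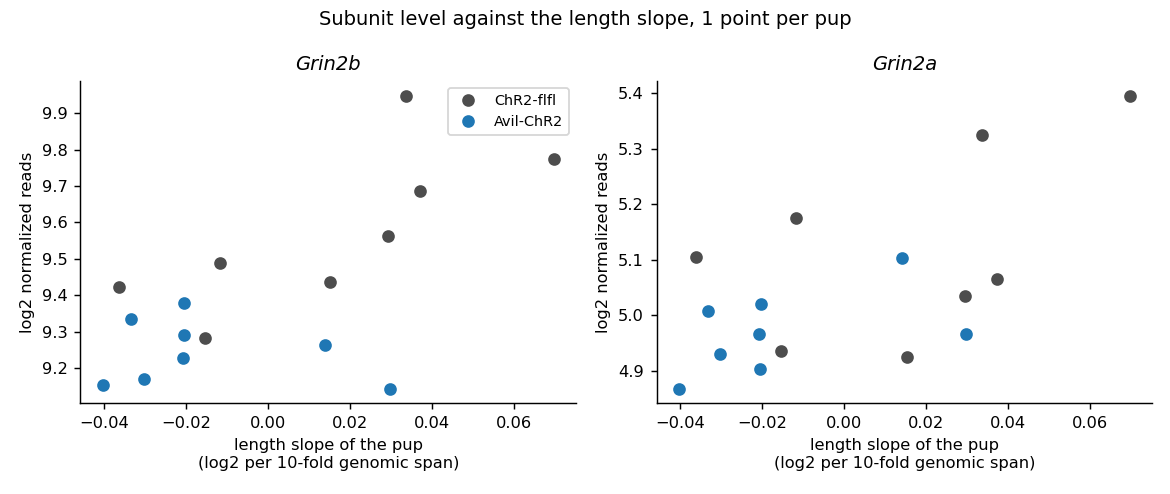
Log2 normalized reads of Grin2b (left) and Grin2a (right) against the length slope of the pup (log2 units per 10-fold longer genomic span), 1 point per pup, ChR2-flfl in grey and Avil-ChR2 in blue. Between slopes of -0.040 and 0.030, where both genotypes have pups, most ChR2-flfl points of Grin2b lie above the Avil-ChR2 points, and only ChR2-flfl pups have slopes above 0.030.

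The difference between genotypes was also compared between the sexes, since each genotype had pups of both. In females, with sexes as in the labels, the log2 difference of Grin2b was -0.21 (5 Avil-ChR2 and 4 ChR2-flfl pups) and in males -0.47 (3 and 4 pups), and the difference of these differences was -0.25 ± 0.14 (SE; limma adjusted P of the interaction = 0.993). For Grin2a the log2 differences were -0.054 in females and -0.25 in males (interaction -0.20 ± 0.11 SE, limma adjusted P = 0.993). For Grin2d they were 0.079 in females and -0.20 in males, which was the interaction largest relative to its error among the members (-0.27 ± 0.091 SE, limma adjusted P = 0.993). With the sexes of the sample list, which the Y-linked genes matched in 16 of 16 pups, the interactions were -0.29 ± 0.13 SE for Grin2b, -0.26 ± 0.090 SE for Grin2d and 1.01 ± 0.36 SE for Grin2c, with unadjusted limma P-values of 0.0478, 0.00891 and 0.0122 and adjusted P-values of 0.794 or above. No gene passed the adjustment in either test, so that no difference between the sexes was shown. The interaction with the run of pup numbers had unadjusted limma P-values of 0.330 or above for every member.

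Genes that serve NMDA receptors were followed in 6 lists with 60 genes, all of which were tested. At an unadjusted limma P under 0.05, 1 of the 60 was lower and 2 were higher in Avil-ChR2, which is near the 3.46% lower and 1.95% higher among all genes tested, 0 passed the adjustment (lowest adjusted P = 0.908), and the median log2 difference was 0.012. Among the 10 genes for the supply of the co-agonists glycine and D-serine, 0 had an unadjusted P under 0.05 (median -0.0018), and the same was true of the 4 genes for glutamate uptake (median 0.040), the 18 kinases and phosphatases that act on the receptor (median 0.011) and the 12 genes of its scaffold and signalling complex (median 0.025). In the list of 11 trafficking genes, 2 were higher. These were Apba1, an adaptor in the complex that carries NMDA receptors along dendrites, with 408 ± 16.3 CPM in ChR2-flfl and 425 ± 11.1 CPM in Avil-ChR2 (log2 difference 0.059, exact permutation P = 0.0230, limma adjusted P = 0.908), and Lin7b, a partner in the same complex, with 33.5 ± 3.28 and 36.2 ± 2.64 CPM (log2 difference 0.12, exact permutation P = 0.0730, limma adjusted P = 0.911). Of the 5 genes linked to the subunit switch, 1 was lower, namely Reln, which encodes reelin, with 321 ± 38.8 CPM in ChR2-flfl and 290 ± 25.5 CPM in Avil-ChR2 (log2 difference -0.14, exact permutation P = 0.0779, limma adjusted P = 0.908). By the exact permutation test taken gene by gene, 2 listed genes without a limma P under 0.05 had an exact P under 0.05 and are named after their values were seen. They were Dlg3 of the scaffold list (log2 difference 0.041, exact permutation P = 0.0180, limma adjusted P = 0.916) and Cask of the trafficking list (log2 difference -0.054, exact permutation P = 0.0483, limma adjusted P = 0.911). Reln spans 460252 bp and thus belongs to the long genes as Grin2a and Grin2b do. The other listed genes of at least 300000 bp each had an unadjusted limma P above 0.05. Their log2 differences were -0.054 for Cask, -0.051 for Dab1, -0.042 for Grm5, -0.0041 for Dlg2 and 0.018 for Prkca.

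The genes whose levels followed a member most closely over the 16 pups, after the mean of each genotype was subtracted, differed from member to member. The search covered 15137 genes with a mean log2 value of 0 or more, which leaves out Grin3b, and is a description, as points share the library of a pup. Grin2b went with 4932438A13Rik (r = 0.95), Birc6 (r = 0.95) and Smg1 (r = 0.94), all of them genes with spans above 100000 bp. Such spans also held for all genes named below for Grin3a. Grin2a went with Scn8a (r = 0.90), a voltage-gated sodium channel, with LOC105247259 (r = 0.89) and with Gramd1b (r = 0.89). Grin1 went with Apbb1 (r = 0.96), Ube2o (r = 0.92) and Camk2b (r = 0.92), the last of which encodes a subunit of CaM kinase II. Grin2d went with Agrn (r = 0.96), Wnk2 (r = 0.95) and Gltscr1 (r = 0.95), Grin3a with Slc9a7 (r = 0.87), Arhgap26 (r = 0.84) and Arhgef28 (r = 0.84), and the sparsely detected Grin2c with Htr1d (r = 0.85), LOC105245755 (r = 0.80) and Cyb561 (r = 0.80). No gene was shared between these sets. Between members, r was highest for Grin2a with Grin2b (0.72), followed by Grin2b with Grin2d (0.58) and Grin1 with Grin2d (0.55), while Grin1 and Grin2b had r = -0.034.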

How the data were processed

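Cortices of 8 Avil-ChR2 and 8 ChR2-flfl pups were sequenced as stranded mRNA libraries. The authors used SeqMan NGen for alignment to mm10 (GRCm38), kept reads no shorter than 50 bp, counted genes in ArrayStar and deposited TMM-normalized CPM on a linear scale, 1 column per pup. These deposited values are neither raw counts nor log values, and the table writes them with decimal commas, so they were treated as another unit and no count model was used. All values of up to 20000 reads were whole multiples of 1 read within 0.05, which gave the depth (larger values, most of those of Grin2b included, were not checked). Libraries have no molecular identifiers, so depth covers counting error only, and replicates are separate animals.

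Values were log2 transformed without a pseudocount, with a floor of -5. Genes with at least 12 of 16 pups above -5 entered limma (version 3.58.1, R 4.3.3; lmFit, eBayes with trend) with Benjamini-Hochberg adjustment. Ratios, length slopes and correlations were compared by exact permutation tests (Python 3.11.15). Methods were tested on simulated data. The genes named were the members, Avil, listed genes with an unadjusted P under 0.05 and the 3 most similar genes per member except Grin3b, which was below the minimum level of that search. Slc17a7, Ttr, P2ry12, Alas2, Gabra6, Cbln1, Dlg3, Cask and the overlapping genes were named after their values were seen. So were Slc17a6, Prkcd, Gbx2, Tcf7l2, Lef1, Dab1, Grm5, Dlg2, Prkca, Xist and Tsix. The members and lists were chosen with earlier results of these data known. Sequences and exon lengths are from GENCODE M21. Alternatives were pseudocount, filters, normalization, covariates, replicate block, array weights, pup number runs and leaving out each pup. Protein sequences were not used here, and the aligned coding sequences are not reported here.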

Additional observations from a re-analysis of the deposited data

How the results depend on the processing

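Over up to 30 alternatives per member, 203 of 209 log2 differences kept their direction, Grin2a and Grin2b in all of them (-0.18 to -0.082 and -0.37 to -0.24), and no member was called by limma at an adjusted P under 0.05 (lowest 0.115). Grin3b has no value under the filter on a mean log2 of at least 0, which it did not pass. Without 1 pup, Grin2c lay between 0.089 and 0.39, Grin2d between -0.076 and -0.014, Grin3a between -0.033 and -0.0037 and Grin3b between 0.069 and 0.20. Differences near 0 changed sign. With the length slope as covariate Grin1 was -0.035 and Grin3a 0.00051, in pups 35 to 42 Grin1 was -0.0075 and Grin3a 0.00037, in pups 26 to 33 Grin2d was 0.0042, and without Avil-ChR2 replicate 3 Grin1 was -0.00064 (-0.00064 to 0.041 over all pups left out in turn). The count of members lower at an unadjusted limma P was 1 in place of 2, Grin2b alone, with the length slope as covariate, with array weights and in pups 35 to 42 only. The cause was not tested for these. Among all genes, 446 in place of 732 were lower and 226 in place of 413 higher in pups 26 to 33 only, 653 were lower in pups 35 to 42 only, 622 were higher without ChR2-flfl replicate 2, and the genes called at an adjusted P numbered 1 to 3 over all alternatives. With 4 against 4 pups the exact test cannot go below 0.0286, and the log2 ratios then missed the threshold after adjustment. In pups 26 to 33 they were 0.20 for Grin2a to Grin2b, -0.41 for Grin2b to Grin1 and -0.21 for Grin2a to Grin1, and in pups 35 to 42 they were 0.16, -0.29 and -0.13. Without 1 pup, Grin2a to Grin1 lay between -0.19 and -0.12 (adjusted exact P 0.0177 to 0.0670), Grin2a to Grin2b between 0.16 and 0.21 and Grin2b to Grin1 between -0.39 and -0.29, both with adjusted P under 0.05 in all 16 cases. The length slope differed by -0.063 when transcript length was used (exact permutation P = 0.0381) and by -0.038 to -0.023 without 1 pup (exact P = 0.0194 to 0.120). Without the 2 farthest pups, r changed sign for Grin1 with Grin2b in ChR2-flfl (0.16), Grin1 with Grin2a in Avil-ChR2 (-0.27) and the length slope with Grin2b in Avil-ChR2 (0.53). The interaction of Grin2c with the run of pup numbers was -0.044, and 0.031 with sex as covariate.

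The genotypes share replicate numbers 1 to 8, which are serial numbers of different animals. Same-numbered pups had correlations of their deviations of -0.34 to 0.39, 3 of 8 over 0.1, and 1 of 8 pups correlated best with its own number, so that the numbers were not taken as pairs. With the replicate number as a block, 2 members were lower at an unadjusted limma P (Grin2b P = 0.000639, Grin2a P = 0.0146) and 0 at an adjusted P, and the log2 ratio of Grin2a to Grin1, -0.17, had an exact sign-flip permutation P of 0.0703. The call of no other ratio and of no member changed with the block. Over all genes, 1 gene in place of 2 was called at an adjusted P with it. Counts of 22 to 98 reads per pup limit Grin2c and Grin3b.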
